A study of Bos taurus with 2 samples.

Results

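Insulin-like growth factor (IGF) genes were examined in cultured bovine satellite cells by single-cell RNA sequencing. The 10 genes were taken by name: the ligands IGF1 and IGF2, the receptors IGF1R and IGF2R, and the binding protein genes IGFBP2, IGFBP3, IGFBP4, IGFBP5, IGFBP6 and IGFBP7. All 10 were among the 21867 genes of the feature list, and each had at least 1 unique molecular identifier (UMI). A total of 9 passed the filter on low counts in every comparison, and IGF1 passed it in none.

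IGF1 and IGF2 are secreted peptides that promote the survival, growth and differentiation of muscle cells. Both bind IGF1R, a receptor tyrosine kinase that signals through the PI3K-AKT and MAPK pathways. IGF2R carries IGF2 to the lysosome for degradation and also sorts lysosomal enzymes tagged with mannose 6-phosphate. The IGF binding proteins hold the ligands outside the cell, where they can limit or prolong their action, and proteases such as HTRA1 and ADAM12 can cleave them. In muscle cell cultures, IGF2 made by the cells themselves is known as an autocrine signal of differentiation.

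The cells came from the longissimus muscle of 1 Holstein bull calf aged 2 weeks and were grown for 1 week in medium with 10% fetal bovine serum. No treatment, genotype or time was compared. From the same cells, 2 libraries were made on the 10x Genomics platform, which tags each captured RNA molecule with a cell barcode and a UMI, and they are called replicates 1 and 2 here. The replicates therefore differ only by the cells drawn, preparation and sequencing, and no p-value here speaks to differences among calves. Replicate 1 held 9939 cells with 145631299 UMIs and replicate 2 held 9157 cells with 137818568 UMIs. UMIs per cell ran from 473 to 59003, and 27 barcode sequences occurred in both libraries.

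The study divided the cells into 15 clusters, and the comparisons follow its reading of them. It placed 7 clusters on 2 paths of myogenic cells. The first path runs from cluster 8 (PAX3 satellite cells) through cluster 1 (MYF5 myoblasts) and cluster 3 to cluster 12 (both MYOG myocytes). The other path runs from cluster 8 through cluster 5 (PAX3 satellite cells) and cluster 4 (PAX7 satellite cells) to cluster 2 (MYOD1 myoblasts). Clusters 7 and 9 were called fibro-adipogenic, and the remaining 6 clusters were left without a name.

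Markers of these cell types were first checked as levels, meaning UMIs of a gene per 10000 UMIs of all genes in a cluster. MYOG, a regulator of muscle differentiation, had a mean level of 6.68 in cluster 3 and 18.6 in cluster 12. PAX7 and PAX3, which define satellite cells, were near 0 everywhere: PAX7 had 39 UMIs in all cells of cluster 4, and PAX3 had 47 in cluster 8 and 53 in cluster 5. The fibro-adipogenic marker PDGFRA had a level of 1.58 in cluster 9 and 1.48 in cluster 7, against at most 0.502 elsewhere. The whole list of 7 fibro-adipogenic markers, in which COL1A1 and COL3A1 carried most UMIs, summed to a level of 338 in cluster 7 but to 56.5 in cluster 9, below the 174 of cluster 8 and the 109 of cluster 4. Cluster 7 also had summed levels of 16.9 for 7 myocyte markers and 8.74 for 5 satellite cell and myoblast markers. Sums of the latter list were smaller in clusters 8 (3.47), 5 (4.41) and 4 (5.09), which the study called satellite cells. Only clusters 11 (3.28) and 9 (1.60) were lower still. Myogenic clusters 2, 1, 3 and 12 had 11.5, 11.8, 17.7 and 26.8, and clusters 14, 15, 6, 10 and 13, without a name, had 7.86, 10.4, 10.6, 11.1 and 13.9. The cells of cluster 7 were shallow, with a median of 1389 UMIs. Clusters 13, 14, 15 and 10 had medians of 1631, 2513.5, 647 and 5398.5 UMIs, whereas the other clusters ran from 12929 to 23011. Endothelial, glial, immune and adipocyte marker lists summed to at most 0.158 in any cluster. A list of 5 pericyte and smooth muscle markers summed to 3.75 (cluster 10) to 9.76 (cluster 8), of which the smooth muscle actin ACTA2 made up 3.22 and 9.12. The part of these other cell type markers in the IGF results was not tested.

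Of the ligands, IGF2 was measured deeply and IGF1 almost not at all. IGF2 had 273713 UMIs, and 76.3% of the 19096 cells held at least 1, up to 298 in a single cell. IGF1 had 12 UMIs in 12 cells, 7 in replicate 1 and 5 in replicate 2. Differences of IGF1 between clusters were therefore not detectable at this depth. Among the receptors, IGF2R had 36339 UMIs in 73.1% of cells and IGF1R had 1380 UMIs in 6.74% of cells. Among the binding proteins, IGFBP6 had 98719 UMIs, IGFBP3 had 42185, IGFBP2 had 34401, IGFBP5 had 25955, IGFBP4 had 21740 and IGFBP7 had 682. IGFBP6 was found in 84.8% of cells and IGFBP7 in 3.03%.

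**Figure D1:**
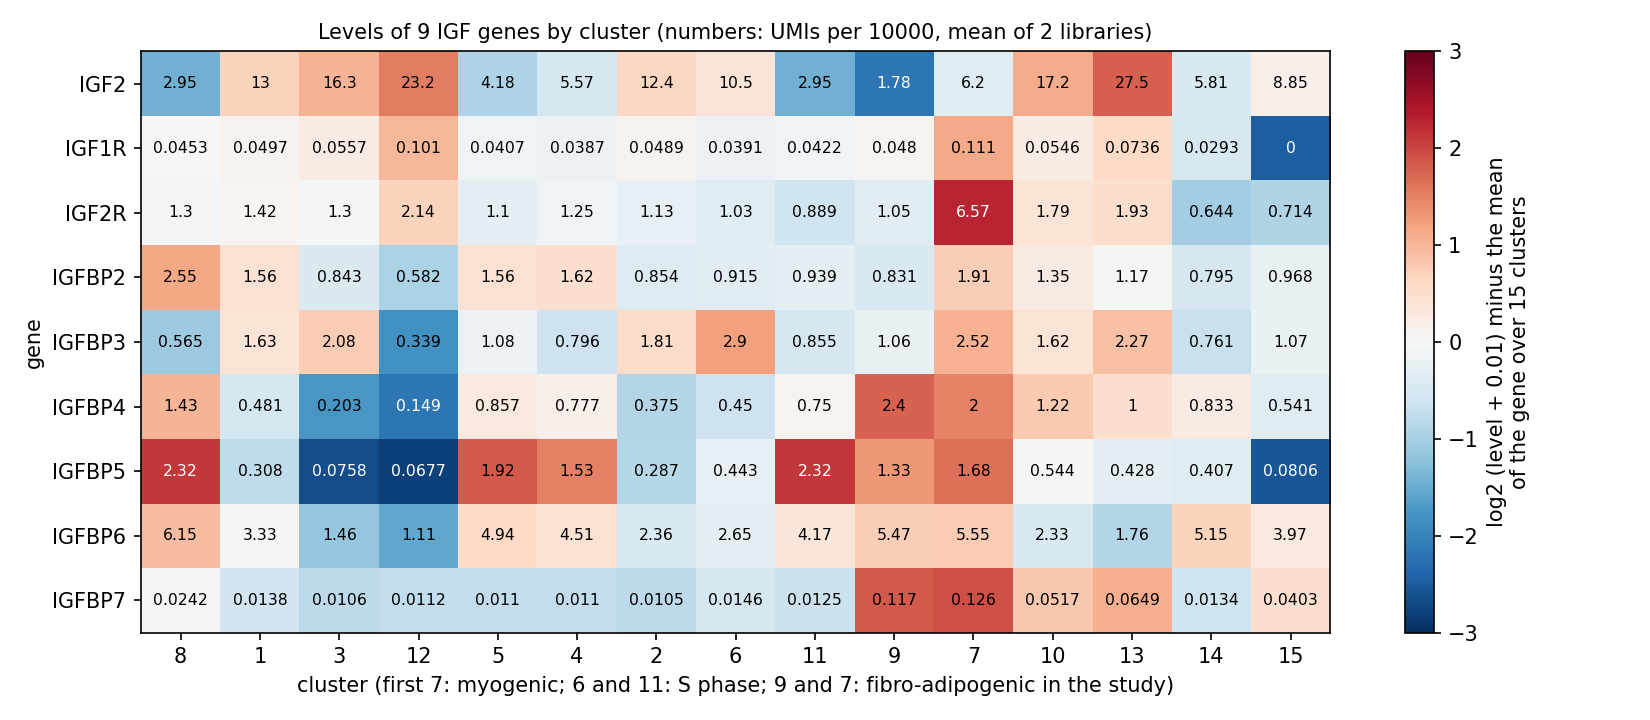
Levels of 9 IGF genes (rows) in the 15 clusters (columns). The printed numbers are UMIs per 10000 UMIs, as the mean of both libraries, and the colour is log2 of the level plus 0.01, minus the mean of that gene over the clusters. IGF2 is highest in clusters 13 and 12 and lowest in cluster 9, and IGFBP2 to IGFBP6 are all lowest in cluster 12.

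IGF2 spanned the clusters widely. The level was 27.2 in replicate 1 and 27.8 in replicate 2 in cluster 13, the highest, and 20.7 and 25.8 in cluster 12, the next. In cluster 9, the lowest, it was 1.94 and 1.61. Between these lay clusters 10 (mean level 17.2), 3 (16.3), 1 (13), 2 (12.4), 6 (10.5), 15 (8.85), 7 (6.2), 14 (5.81), 4 (5.57), 5 (4.18) and, at 2.95 each, 8 and 11. Neighbours in this order were mostly not separated: in 10 of 14 neighbouring pairs the ranges of the libraries overlapped. Within each library the order was largely the same, and it differed between the libraries in 3 of the 14 pairs. Replicate 2 was above replicate 1 in 13 of the 15 clusters. RefSeq, for the assembly ARS-UCD2.0, has IGF2 beside the insulin gene INS, which had 3 UMIs in all cells.

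The receptors had a different order. IGF2R stood apart in cluster 7, at 6.57 in replicate 1 and 6.58 in replicate 2. The next were cluster 12, at 2.25 and 2.04, and cluster 13, at 2.15 and 1.71. In the other 12 clusters the mean level ran from 0.644 in cluster 14 to 1.79 in cluster 10. IGF1R, the signalling receptor, was also highest in cluster 7, at 0.123 and 0.0984, and next in cluster 12, at 0.0959 and 0.105, so that these clusters were not separated. Its level rested on 23 UMIs in cluster 7 and on 125 in cluster 12. In cluster 15 IGF1R had no UMI in either library, and the remaining clusters had mean levels from 0.0293 to 0.0736. For IGF1R, 11 of 14 neighbouring pairs were not separated, against 6 for IGF2R. The order of a pair differed between the libraries in 6 pairs of IGF1R and 4 of IGF2R.

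The binding protein genes peaked in different clusters, but IGFBP2, IGFBP3, IGFBP4, IGFBP5 and IGFBP6 shared the cluster with their lowest mean level, the myocytes of cluster 12. IGFBP2 was highest in cluster 8, at 2.53 and 2.56 in replicates 1 and 2, and was at 0.545 and 0.618 in cluster 12. IGFBP6, which binds IGF2 more tightly than IGF1, was likewise highest in cluster 8, at 6.26 and 6.03, though not separated from cluster 7 at 4.45 and 6.64, and was at 1.14 and 1.07 in cluster 12. IGFBP5 was at 2.24 and 2.40 in cluster 11 and at 2.36 and 2.28 in cluster 8, which were not separated, and at 0.0699 and 0.0655 in cluster 12. For IGFBP5 the low end was shared: cluster 15 had 0 UMIs in replicate 1 and 2 in replicate 2, and cluster 3 was at 0.0761 and 0.0755. These genes thus had their high and low ends in clusters whose libraries did not overlap.

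IGFBP4 was highest in cluster 9, at 2.17 in replicate 1 and 2.63 in replicate 2, with cluster 7 next at 1.68 and 2.32, which overlapped it. Cluster 12 had an IGFBP4 level of 0.148 and 0.150. IGFBP3, the main carrier of IGFs in blood, was highest in cluster 6, at 2.96 and 2.83, and lowest in cluster 12, at 0.350 and 0.329. Its levels in the shallow cluster 13 were 1.5 and 3.03, the widest spread of this gene. IGFBP7, which binds IGFs weakly, was at 0.0542 and 0.180 in cluster 9 and at 0.0223 and 0.230 in cluster 7, and at a mean of 0.0649 or less elsewhere. None of the 14 neighbouring pairs of IGFBP7 was separated, and the order differed between the libraries in 10 of them. RefSeq for ARS-UCD2.0 has IGFBP7 overlapping POLR2B, and IGF1R overlapping PGPEP1L. Whether the UMI counting used strand is not given in the sources used here.

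To compare clusters, UMIs were summed per library and cluster, and the sums, 2 against 2, were tested over all genes with the quasi-likelihood test of edgeR and Benjamini-Hochberg adjustment. The threshold was an adjusted p of 0.05. Each ± gives a standard error (SE) derived from the edgeR test. It is the absolute log2 fold change divided by the square root of the F statistic. The counts tested here had also defined the clusters, and p-values between clusters are thus not independent evidence. Because both sums of a library share its preparation, a fit with the library as a block was also run, and its value is given where it changed a call of an IGF gene between clusters. That fit has 1 residual degree of freedom per gene and borrows its estimate of the spread from all genes.

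**Figure D2:**
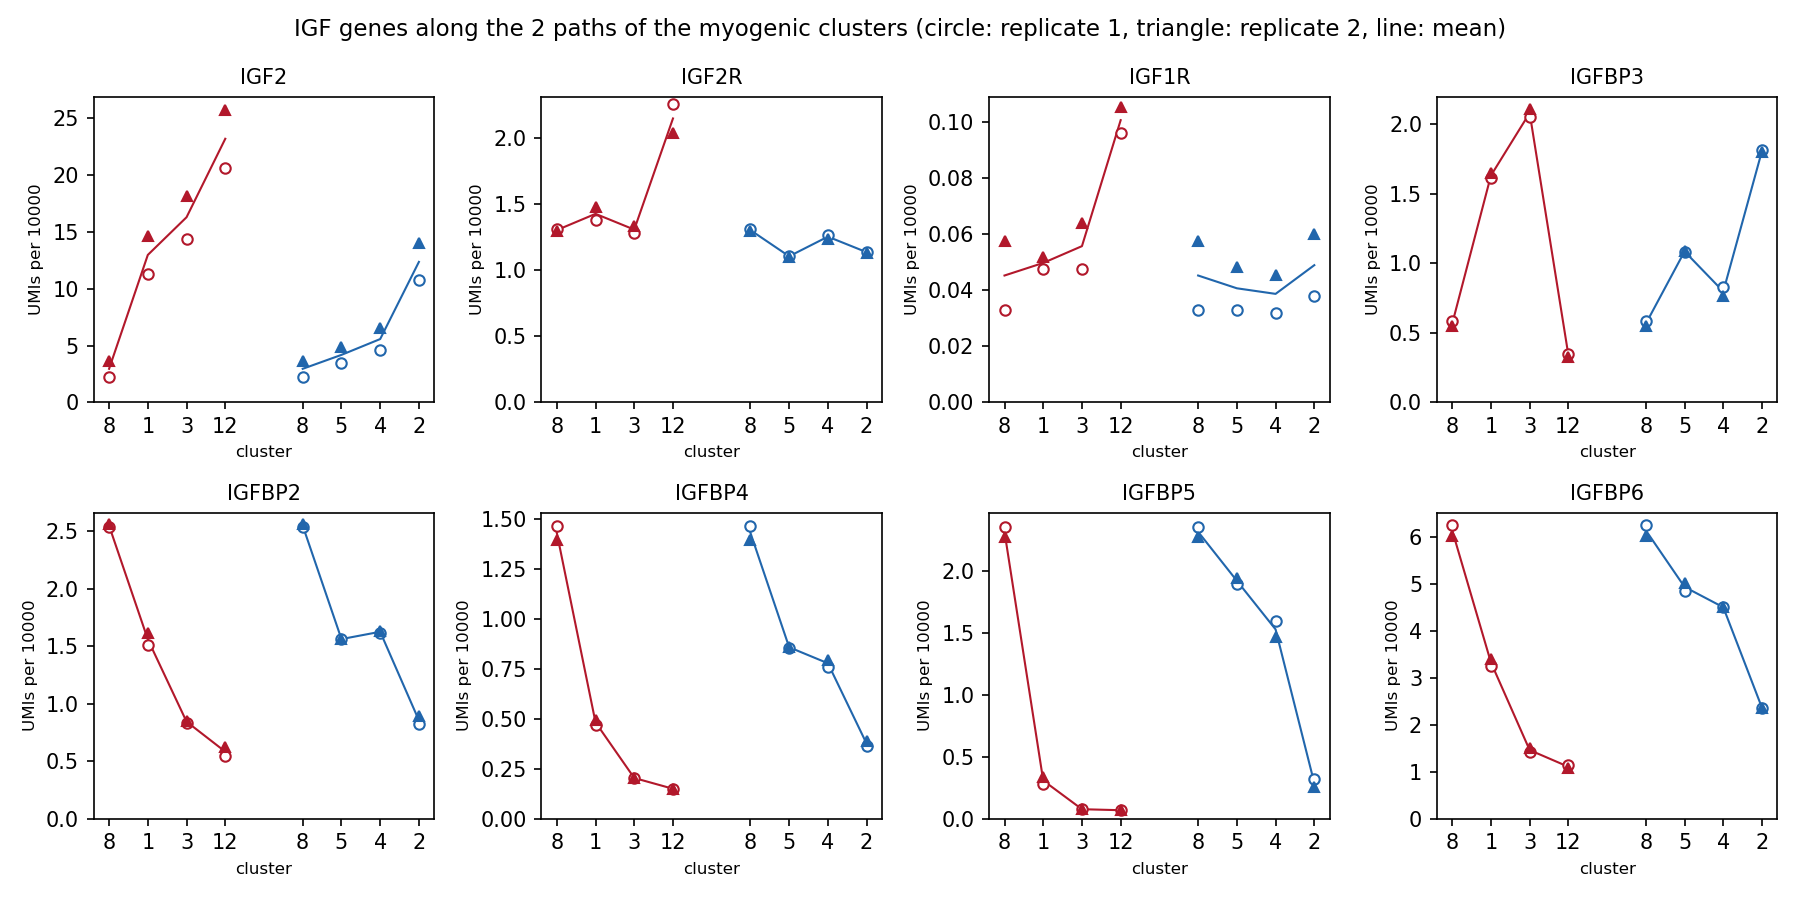
Levels of 8 IGF genes (vertical axes, UMIs per 10000 UMIs, each from 0) along the path of clusters 8, 1, 3 and 12 (red) and the path of clusters 8, 5, 4 and 2 (blue). Circles are replicate 1, triangles replicate 2 and lines their mean. IGF2 is higher at the end of both paths than in cluster 8, IGFBP2, IGFBP4, IGFBP5 and IGFBP6 are lower, and IGFBP3 is low in cluster 12 after its highest level of the path in cluster 3.

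The step from cluster 8 to cluster 1, which the study reads as commitment of satellite cells to myoblasts, was examined first. IGF2 was at 2.26 and 3.65 in the libraries of cluster 8 and at 11.3 and 14.6 in those of cluster 1. All cluster 1 values were above those of cluster 8, with a log2 fold change of 2.17 ± 0.20 (SE) and an adjusted p of 0.000105 by edgeR. IGFBP5 moved the other way, from 2.36 and 2.28 to 0.279 and 0.336. Its log2 fold change was -2.88 ± 0.08 (adjusted p = 4.6e-07), the largest in size of the 9 genes tested. IGFBP4 fell by 1.54 ± 0.06, IGFBP6 fell by 0.85 ± 0.05 and IGFBP2 fell by 0.67 ± 0.05, whereas IGFBP3 rose by 1.56 ± 0.06, all on the log2 scale.

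IGF2R was 0.16 ± 0.05 higher on the log2 scale in cluster 1 (adjusted p = 0.0467 by edgeR), a call that was lost with DESeq2, without TMM scaling, without the filter and after reassigning cells. IGF1R differed by 0.18 ± 0.26 and did not pass the test. IGFBP7 differed by -0.76 ± 0.73 (adjusted p = 0.470) and was called only with the library block (adjusted p = 0.0361). In all, 3 of the 9 tested genes were higher and 4 lower in cluster 1, while 17.2% of the 11194 genes tested were higher and 16.9% lower.

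From cluster 1 to cluster 3, the MYOG-expressing cells, 4 of the 6 binding protein genes fell. IGFBP5 went from 0.279 and 0.336 in replicates 1 and 2 to 0.0761 and 0.0755, with a log2 fold change of -1.98 ± 0.11 (adjusted p = 3.09e-05 by edgeR). IGFBP4 went from 0.468 and 0.494 to 0.201 and 0.205, a fall of 1.21 ± 0.06. IGFBP6 fell by 1.15 ± 0.05 and IGFBP2 fell by 0.85 ± 0.05 on the same scale. For none of these genes did the libraries of both clusters overlap. IGFBP3 alone of the binding proteins was called higher, by 0.39 ± 0.04.

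IGF2 was at 14.4 and 18.2 in cluster 3 against 11.3 and 14.6 in cluster 1, so that replicate 1 of cluster 3 lay below replicate 2 of cluster 1. The log2 difference of 0.36 ± 0.13 did not pass the edgeR test (adjusted p = 0.0622) and passed it with the library block (adjusted p = 4.19e-63). IGF2R differed by -0.09 ± 0.05 (adjusted p = 0.205), and with the block its adjusted p was 0.0175. IGF1R, at 0.19 ± 0.18, and IGFBP7, at -0.37 ± 0.70, did not pass the test. Thus 1 of 9 genes was higher and 4 were lower, against 21.1% and 19.1% of the 11362 genes tested.

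The last step of this path compared the myocytes of cluster 12 with those of cluster 3. Here the ligand and both receptors were higher. IGF2 was at 20.7 and 25.8 against 14.4 and 18.2, a log2 fold change of 0.61 ± 0.12 (adjusted p = 0.00578 by edgeR). IGF2R was at 2.25 and 2.04 against 1.28 and 1.33, with a log2 fold change of 0.81 ± 0.07 (adjusted p = 9.1e-05). For IGF1R, the levels were 0.0959 and 0.105 against 0.0475 and 0.0639, and the log2 fold change was 0.96 ± 0.20 (adjusted p = 0.00778). Cluster 12 was above cluster 3 in both libraries for all 3 genes, with no overlap.

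IGFBP3 turned over this step, from 2.05 and 2.11 in cluster 3 to 0.350 and 0.329 in cluster 12. It fell by 2.52 ± 0.07 on the log2 scale (adjusted p = 4.65e-07 by edgeR) after rising over both earlier steps. IGFBP2 fell by 0.44 ± 0.07, IGFBP4 fell by 0.35 ± 0.10 and IGFBP6 fell by 0.31 ± 0.07, and the call of IGFBP4 was lost with DESeq2. IGFBP5, already low, differed by -0.07 ± 0.17 and IGFBP7 by 0.22 ± 0.67, neither past the test. Of 9 genes, 3 were higher and 4 lower, against 18.2% and 15.6% of the 10811 genes tested. Without TMM scaling the share of calls that were higher in cluster 12 was 38.0% over all genes, against 53.8% with it, and 7 IGF genes were called under both.

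On the second path, cluster 5 was first compared with cluster 8. The summed levels were 14.8 against 4.63 for 12 S phase markers and 8.34 against 2.89 for 10 G2/M markers. The part of the cell cycle in the IGF differences of this step was not tested. The changes had the direction seen from cluster 8 to cluster 1 for IGFBP2, IGFBP3, IGFBP4, IGFBP5 and IGFBP6, but IGFBP5 moved little. IGFBP3 was at 1.08 in both libraries of cluster 5 against 0.581 and 0.548 in cluster 8, a log2 rise of 0.94 ± 0.06 (adjusted p = 3.8e-05 by edgeR). IGFBP4 fell by 0.73 ± 0.06, IGFBP2 fell by 0.70 ± 0.05, IGFBP6 fell by 0.31 ± 0.04 and IGFBP5 fell by 0.27 ± 0.05. IGF2R was lower by 0.23 ± 0.05 on the log2 scale, a call lost with DESeq2.

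IGF2 was at 3.46 and 4.90 in cluster 5 against 2.26 and 3.65 in cluster 8, which overlapped. The log2 difference was 0.51 ± 0.22 (adjusted p = 0.122 by edgeR, and 1.02e-25 with the library block). IGFBP7 differed by -1.11 ± 0.80 and was called only with the block (adjusted p = 0.00661). IGF1R differed by -0.14 ± 0.31 and did not pass. In this comparison 1 of 9 genes was higher and 5 were lower, against 16.3% and 12.2% of 10948 genes.

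Cluster 4 against cluster 5 gave the fewest calls of the 6 steps. These clusters also differed in 10 G2/M markers, with summed levels of 56.5 in cluster 4 and 8.34 in cluster 5. The part of the cell cycle in the IGF differences was not tested. IGFBP3 fell by 0.47 ± 0.06, from 1.08 in both libraries to 0.825 and 0.767. IGFBP5 fell by 0.36 ± 0.06 and IGFBP6 fell by 0.16 ± 0.04 on the log2 scale, with adjusted p-values of 0.00762 and 0.0396 by edgeR. The call of IGFBP6 was lost without TMM scaling and without the filter. None of the 9 genes was called higher and 3 were called lower, against 9.16% and 7.28% of 11311 genes. With the library block 3 more were called: IGF2 (log2 0.39, adjusted p = 9.34e-10), IGF2R (log2 0.16, adjusted p = 0.00258) and IGFBP4 (log2 -0.17, adjusted p = 0.00288). IGFBP2 differed by 0.03 ± 0.04, IGF1R by -0.10 ± 0.26 and IGFBP7 by -0.02 ± 0.71, none past either fit.

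Cluster 2 against cluster 4, with summed levels of 57.7 and 56.5 for 10 G2/M markers and of 6.72 and 2.71 for MYOD1, had IGF2 and IGFBP2 to IGFBP6 moving in the directions seen from cluster 8 to cluster 1. IGF2 was at 10.7 and 14 in cluster 2 and at 4.64 and 6.51 in cluster 4, a log2 fold change of 1.14 ± 0.17 (adjusted p = 0.00367 by edgeR). IGFBP5 was at 0.317 and 0.257 against 1.59 and 1.47, and fell by 2.43 ± 0.10 (adjusted p = 2.22e-05). IGFBP3 rose by 1.17 ± 0.05, whereas IGFBP4 fell by 1.07 ± 0.06, IGFBP6 fell by 0.95 ± 0.04 and IGFBP2 fell by 0.94 ± 0.05. The libraries of clusters 2 and 4 did not overlap for any of these 6 genes. IGF2R fell by 0.16 ± 0.04, a call that was lost with DESeq2, without the filter and after reassigning cells. IGF1R, at 0.32 ± 0.27, and IGFBP7, at -0.09 ± 0.67, did not pass the test. In all, 2 of 9 genes were higher and 5 lower, against 14.5% and 15.7% of 11561 genes.

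**Figure D3:**
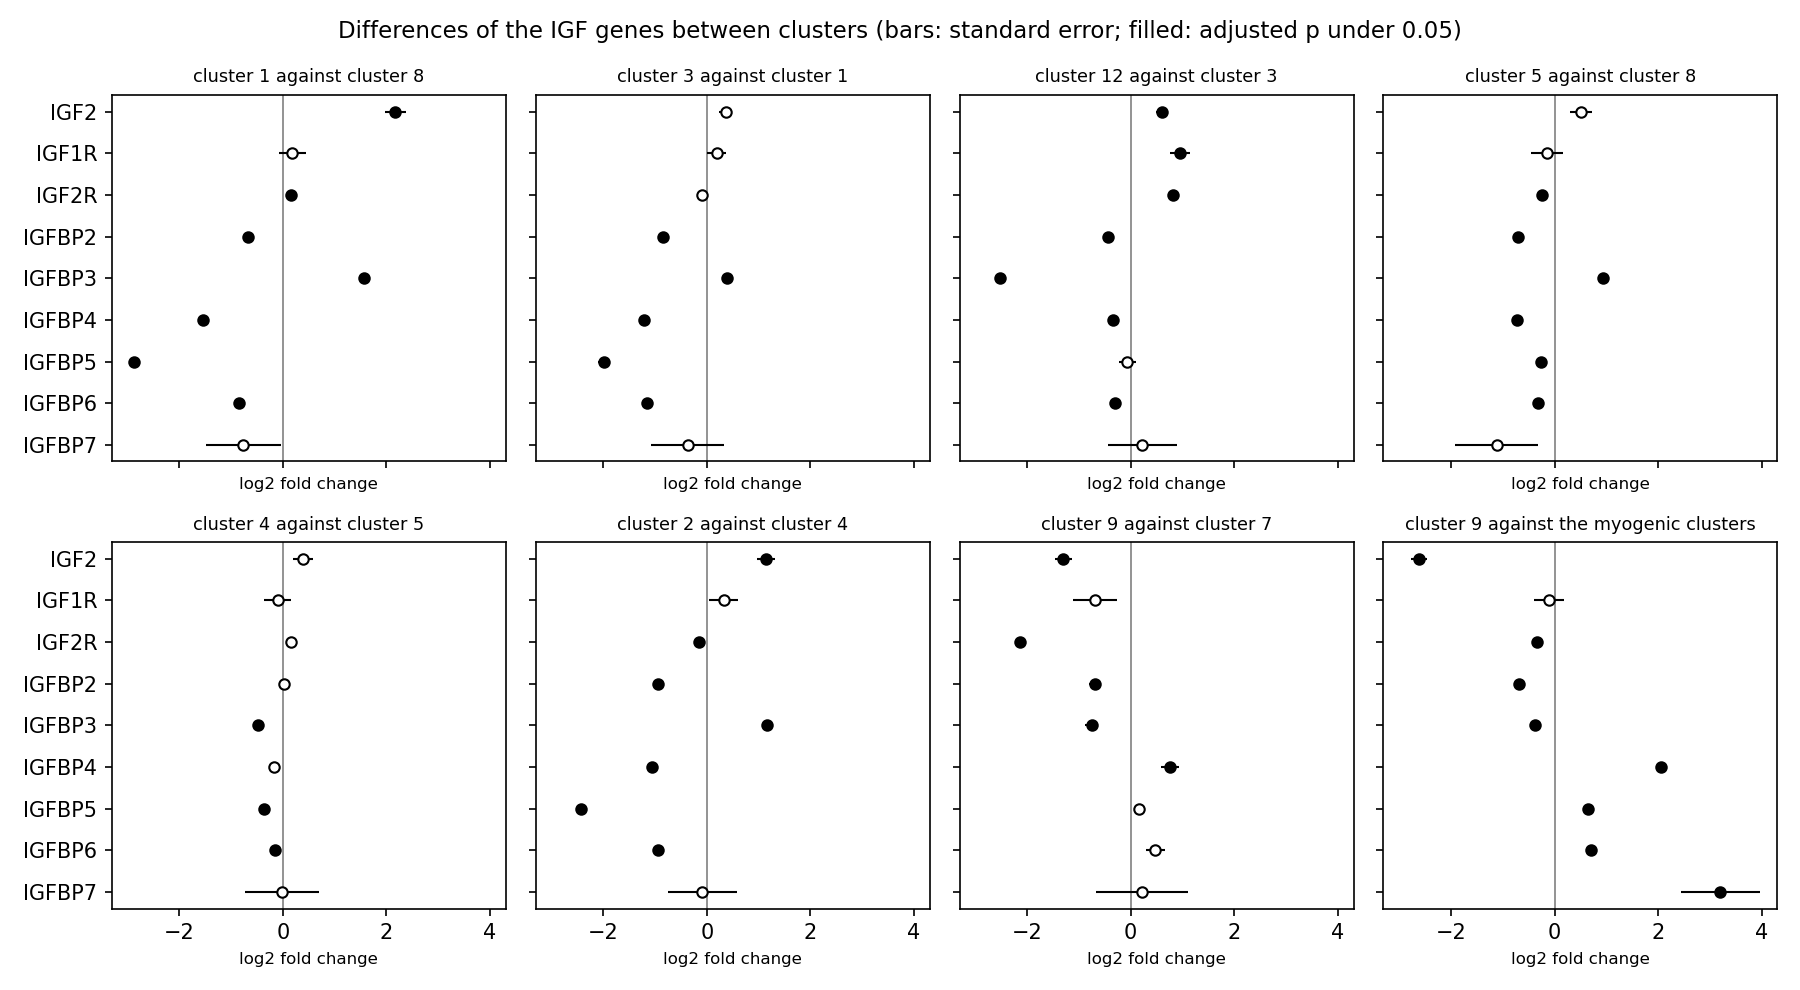
Log2 fold changes of 9 IGF genes (rows) in 8 comparisons of clusters (panels), with bars of 1 SE, derived from the edgeR test as for the values after ±. Filled points have an adjusted p under 0.05. IGFBP5 lies far to the left for cluster 1 against 8, cluster 3 against 1 and cluster 2 against 4, and IGFBP3 lies on the opposite side to IGFBP5 in these 3 panels.

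Clusters 6 and 11 both had high S phase genes, with a summed level of 23.0 and 23.4 for 12 markers, and differed in MYOD1, at 5.75 and 1.35. Their IGF levels are given without a test. IGF2 was at 9.27 and 11.7 in cluster 6 and at 2.58 and 3.31 in cluster 11. IGFBP5 was at 0.403 and 0.484 in cluster 6 and at 2.24 and 2.40 in cluster 11. IGFBP3 was at 2.96 and 2.83 in cluster 6 and at 0.859 and 0.850 in cluster 11. Thus the MYOD1-rich member of this pair had more IGF2 and IGFBP3 and less IGFBP5 in both libraries, as it had between the G2/M clusters 2 and 4. IGFBP4 and IGFBP6 were likewise lower in cluster 6 than in 11 in both libraries. IGFBP2 did not follow, at 0.895 and 0.935 in cluster 6 and at 0.947 and 0.930 in cluster 11, which overlapped. IGF2R was higher in cluster 6, at 0.997 and 1.07 against 0.905 and 0.874, but lower in cluster 2 than in 4. The libraries of IGF1R and IGFBP7 overlapped.

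Cluster 9, called fibro-adipogenic, was compared with the 7 myogenic clusters together. IGF2 was at 1.94 and 1.61 in cluster 9 against a mean of 10.8 in the myogenic cells, a log2 fold change of -2.63 ± 0.16 (adjusted p = 0.000106 by edgeR). IGFBP4 was at 2.17 and 2.63 against a mean of 0.570, higher by 2.05 ± 0.09 (adjusted p = 3.69e-05). IGFBP7 was at 0.0542 and 0.180 against a mean of 0.0124, higher by 3.20 ± 0.76 (adjusted p = 0.0162). IGFBP6 was higher by 0.70 ± 0.03 and IGFBP5 by 0.64 ± 0.04, while IGFBP2 fell by 0.69 ± 0.05, IGFBP3 fell by 0.38 ± 0.05 and IGF2R fell by 0.33 ± 0.04. IGF1R differed by -0.11 ± 0.29 and did not pass the test. So 4 of 9 genes were higher and 4 lower, in a comparison where 28.9% of 12941 genes were higher and 27.6% lower.

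Between the clusters called fibro-adipogenic, the main difference was in IGF2R. Its level was 1.03 and 1.08 in cluster 9 and 6.57 and 6.58 in cluster 7, a log2 fold change of -2.13 ± 0.10 (adjusted p = 7.53e-06 by edgeR). IGF2 was at 1.94 and 1.61 in cluster 9 and at 5.32 and 7.07 in cluster 7, a log2 fold change of -1.30 ± 0.17 (adjusted p = 0.000555). IGFBP3 fell by 0.75 ± 0.13 and IGFBP2 fell by 0.70 ± 0.11, calls that were lost without cells under 2000 UMIs (adjusted p = 0.124 and 0.0643). IGFBP4 was higher in cluster 9 by 0.75 ± 0.18 and was not called without TMM scaling (log2 0.25, adjusted p = 0.232).

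IGFBP6 differed by 0.48 ± 0.18 (adjusted p = 0.0578 by edgeR) and was called with the library block (adjusted p = 0.0187). IGF1R differed by -0.69 ± 0.43 and IGFBP7 by 0.22 ± 0.89, neither past the test. In all, 1 of 9 genes was higher and 4 lower in cluster 9, against 29.9% and 26.6% of 10785 genes. This comparison depended on scaling, since TMM moved the median log2 fold change of all genes from -0.46 to 0.05. Without it, 29.3% of all calls were higher in cluster 9, against 53.0%, and IGFBP5 went from 0.16 (not called) to -0.34 (adjusted p = 0.0232). Depth moved with the clusters too: the median was 1389 UMIs in cluster 7 and 23011 in cluster 9, and 990 of the 1298 cells of cluster 7 had under 2000. The part of depth in these differences was not tested beyond leaving out those cells.

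Each cluster was also compared with all other cells, as the study did. Over 15 clusters and 9 genes, 37 of 135 values were higher and 45 lower at an adjusted p under 0.05 by edgeR, against 14.9% and 17.1% of all values tested over all genes. IGF2 was higher in 5 clusters and lower in 7, IGF2R in 6 and 6, IGFBP2 in 4 and 6, IGFBP3 in 4 and 7, IGFBP4 in 5 and 5, IGFBP5 in 5 and 8, and IGFBP6 in 6 and 6. IGF1R was called only in cluster 12 and IGFBP7 only in cluster 9, both higher. IGF1R was at 1.30 ± 0.21 in cluster 12 (adjusted p = 0.00267 by edgeR) and at 0.53 ± 0.34 in cluster 7 (adjusted p = 0.270). IGFBP7 was at 2.90 ± 0.73 in cluster 9 (adjusted p = 0.0163 by edgeR). In cluster 7, with 30 UMIs, it was at 1.92 ± 1.00 (adjusted p = 0.177). With the library block 100 of the 135 were called. Of the 18 added calls 10 were of IGFBP7, in clusters 1 to 7 and 10 to 12. Among these, IGFBP7 was higher in clusters 7 and 10 and lower in the others. IGF2 and IGF1R had 2 added calls each, in clusters 2 and 6 and in clusters 3 and 4. The split of calls over all genes moved by over 10 percentage points without TMM in 10 of the 15 clusters. Cluster 15 had no split without TMM and could not be compared. In cluster 7 IGF2R was higher by 1.76 ± 0.09 and IGFBP4 by 0.77 ± 0.16, and IGF2 was at -1.29 ± 0.18, where 18.3% of all genes were higher and 26.4% lower. IGF2 had a mean level of 6.2 in cluster 7, and the fitted difference is relative to a TMM scaling that shifted the median of all genes in this cluster by -0.65.

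Among the clusters without a name, cluster 13 had IGF2 higher by 1.41 ± 0.11 (adjusted p = 0.00064 by edgeR) and IGF2R by 0.50 ± 0.11. There, IGFBP5 fell by 1.2 ± 0.13 and IGFBP6 fell by 1.08 ± 0.09, where 5.98% of all genes were higher and 11.3% lower. IGFBP3 in cluster 13, at 0.44 ± 0.24, was called only with the block (adjusted p = 0.289 by edgeR and 0.00104). Cluster 10 had IGF2 higher by 0.75 ± 0.13, IGFBP4 by 0.58 ± 0.07 and IGF2R by 0.39 ± 0.06, with IGFBP5 at -0.88 ± 0.10 and IGFBP6 at -0.71 ± 0.05, against 16.7% of all genes higher and 21.9% lower. Clusters 13 and 10 thus shared higher IGF2 and lower IGFBP5 and IGFBP6, calls that the myogenic clusters 3 and 12 also had against all other cells. Clusters 2 and 6 too had IGFBP5 and IGFBP6 called lower, with IGF2 called higher only with the block. Other genes went apart: IGFBP4, higher in cluster 10, was at -1.93 ± 0.06 in cluster 3 and -2.24 ± 0.08 in cluster 12. IGFBP2 was called lower in clusters 3 and 12 but not in 13 or 10. Cluster 14 had IGFBP6 higher by 0.66 ± 0.06 and IGF2, IGF2R, IGFBP3 and IGFBP5 lower, against 3.73% and 4.07% of all genes. IGFBP2 in cluster 14, at -0.54 ± 0.13, was called only with the block (adjusted p = 0.057 by edgeR and 0.00207). In cluster 15, the shallowest, none of the 9 genes passed the test. With the block in edgeR, IGFBP5 and IGF2R were called lower (adjusted p = 2.36e-06 and 0.0292), on 2 and 15 UMIs in this cluster. IGFBP5 had 25953 UMIs in all other cells. Such low counts cannot settle a difference in cluster 15. There, 0.273% of 12827 genes were called in either direction.

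Because depth differed between clusters, the share of cells with at least 1 UMI was taken after each cell had been thinned to 500 UMIs, which left out 26 cells of cluster 15. IGF2 was then found in 51.0% of cells of cluster 12 (exact 95% interval 47.0 to 55.0) and in 5.0% of cells of cluster 9 (3.78 to 6.47). Without thinning, these shares were 91.9% and 59.5%, at median depths of 19113 and 23011 UMIs. IGF2R was found in 25.3% of cells of cluster 7 (22.9 to 27.7), against 3.09% to 11.2% in the others. These intervals cover counting error only. Like the levels, the shares are without TMM scaling. In cluster 7 against all other cells, TMM moved the median log2 fold change of all genes from 0.52 to -0.12.

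IGFBP5 was found in 10.6% of thinned cells of cluster 8 and in 0.344% of cluster 3, and IGFBP6 in 27.2% and 6.15%. IGFBP3 was found in 11% of thinned cells of cluster 6 and 1.28% of cluster 12. IGFBP4 was found in 11.4% of cluster 9 and 0.797% of cluster 12. For IGFBP5, IGF2 and IGF1R the cluster with the highest level did not have the highest share, but the exact 95% intervals overlapped. IGFBP5 was found in 9.35% of thinned cells of cluster 11 (7.47 to 11.5) and in 10.6% of cluster 8 (8.98 to 12.5). Without thinning, these shares were 77.8% and 67.4%. IGF2 was found in 46.8% of thinned cells of cluster 13 (42.8 to 50.9) and in 51.0% of cluster 12 (47.0 to 55.0). The sparse IGF1R was found in 0.462% of thinned cells of cluster 7 (0.170 to 1.00) and in 0.797% of cluster 12 (0.259 to 1.85). RNA free in the suspension adds UMIs to cells that do not make a gene, and no cluster is known here to lack any of these genes, so that no background share could be set for them.

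**Figure D4:**
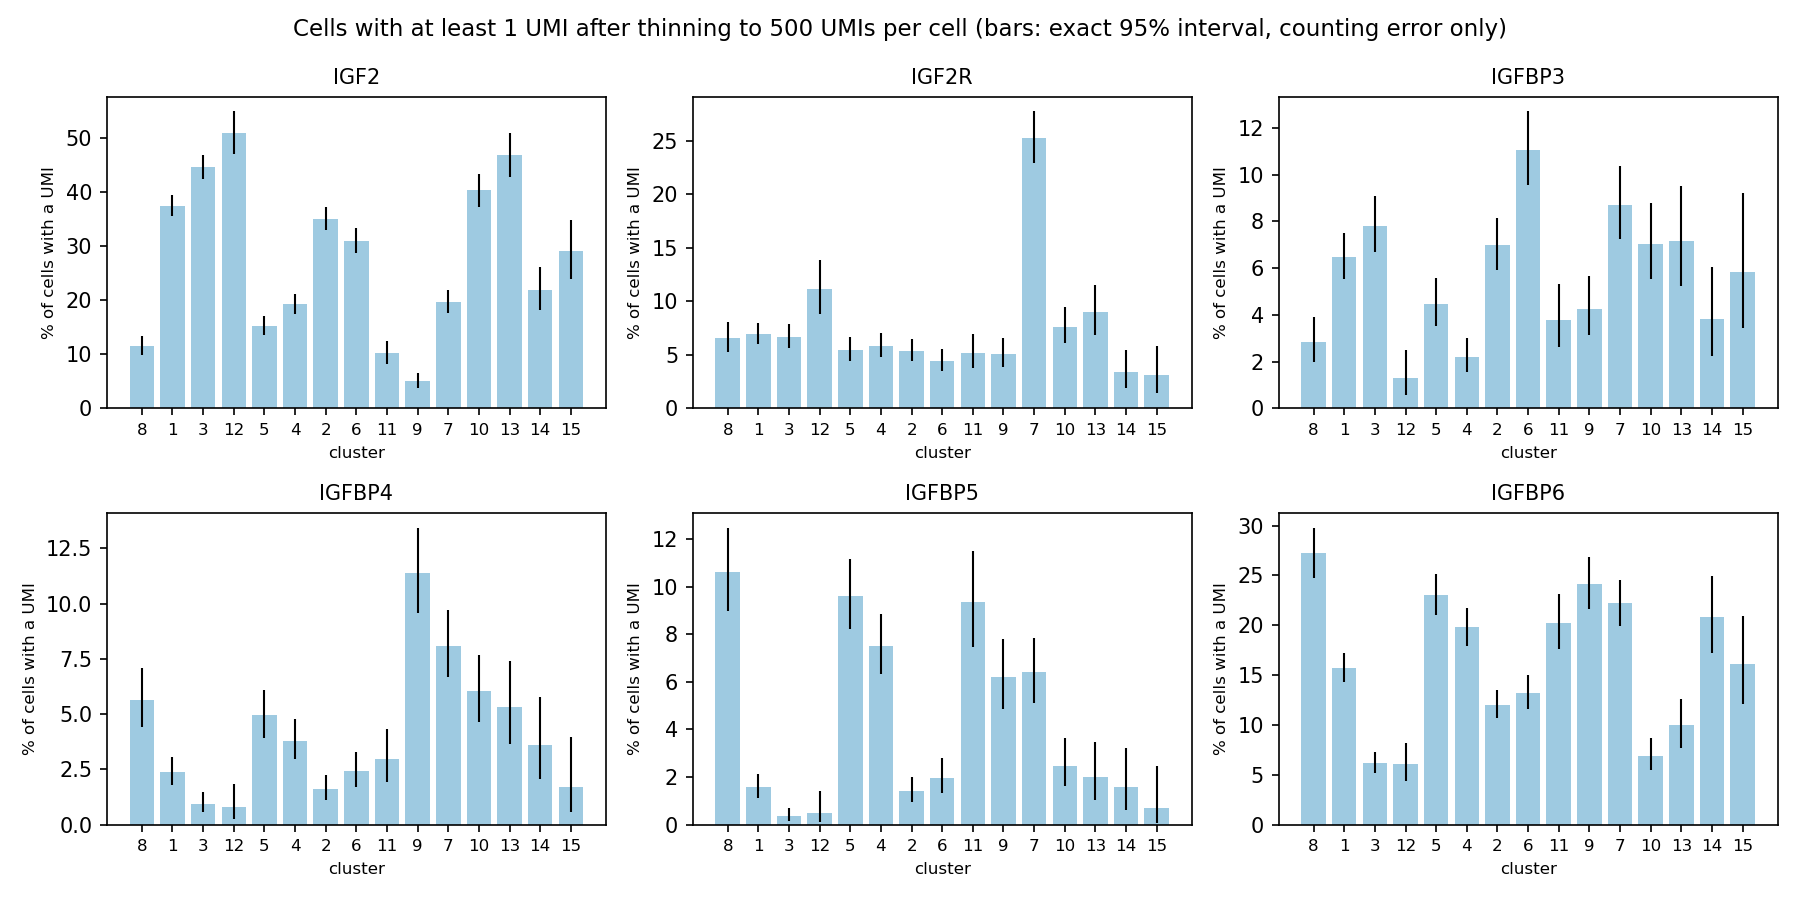
Percentage of cells of each cluster (horizontal axis) with at least 1 UMI of 6 IGF genes after thinning every cell to 500 UMIs. Bars show both libraries together and lines the exact 95% interval, which covers counting error only. IGF2R stands out in cluster 7, IGFBP4 in cluster 9, and IGFBP5 is lowest in clusters 3 and 12.

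Single cells with the most UMIs of a gene were also located. Of the 191 cells with the most IGFBP4, 146 (76.4%) belonged to cluster 9, which held 5.66% of all cells. For IGFBP6 this cluster held 103 of 191 (53.9%). The top cells of IGF2 and IGF2R were most often in cluster 12, with 60 (31.4%) and 62 (32.5%) of 191 from a cluster of 3.28% of cells. Leaving aside the sparse IGF1, IGF1R and IGFBP7, IGFBP3 was the most unevenly spread over cells: its top 1% of cells held 22.3% of its UMIs, with up to 173 in a cell, and clusters 6, 3 and 2 held 51, 45 and 34 of these 191 cells. The top cells were deep, with median totals from 19000 UMIs (IGFBP3) to 27684 UMIs (IGFBP6), so that counts per cell also reflect depth.

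Between the libraries, IGF2, IGF1R and IGFBP7 lay further apart than the other 6 genes with at least 500 UMIs, a description with no test. IGF2 had a level of 8.48 over all cells of replicate 1 and 10.9 in replicate 2, a log2 ratio of -0.36. Of 10062 genes with at least 500 UMIs, 3.95% were at least as far apart. IGF1R had a ratio of -0.49 (2.70% of genes at least as far apart) and IGFBP7, at 0.0111 and 0.0378, one of -1.77 (0.199%). The middle 95% of these genes had log2 ratios from -0.49 to 0.16, so that IGF2 lay inside this range, IGF1R at its edge and IGFBP7 outside. Replicate 2 was higher in 15 of 15 clusters for IGFBP7, in 13 for IGF2 and in 12 for IGF1R. IGF2R, IGFBP2, IGFBP3, IGFBP5 and IGFBP6 had ratios between -0.04 and 0.02, and IGFBP4 one of -0.11. In 3 steps of the paths, the difference of IGF2 was called only with the library block.

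**Figure D5:**
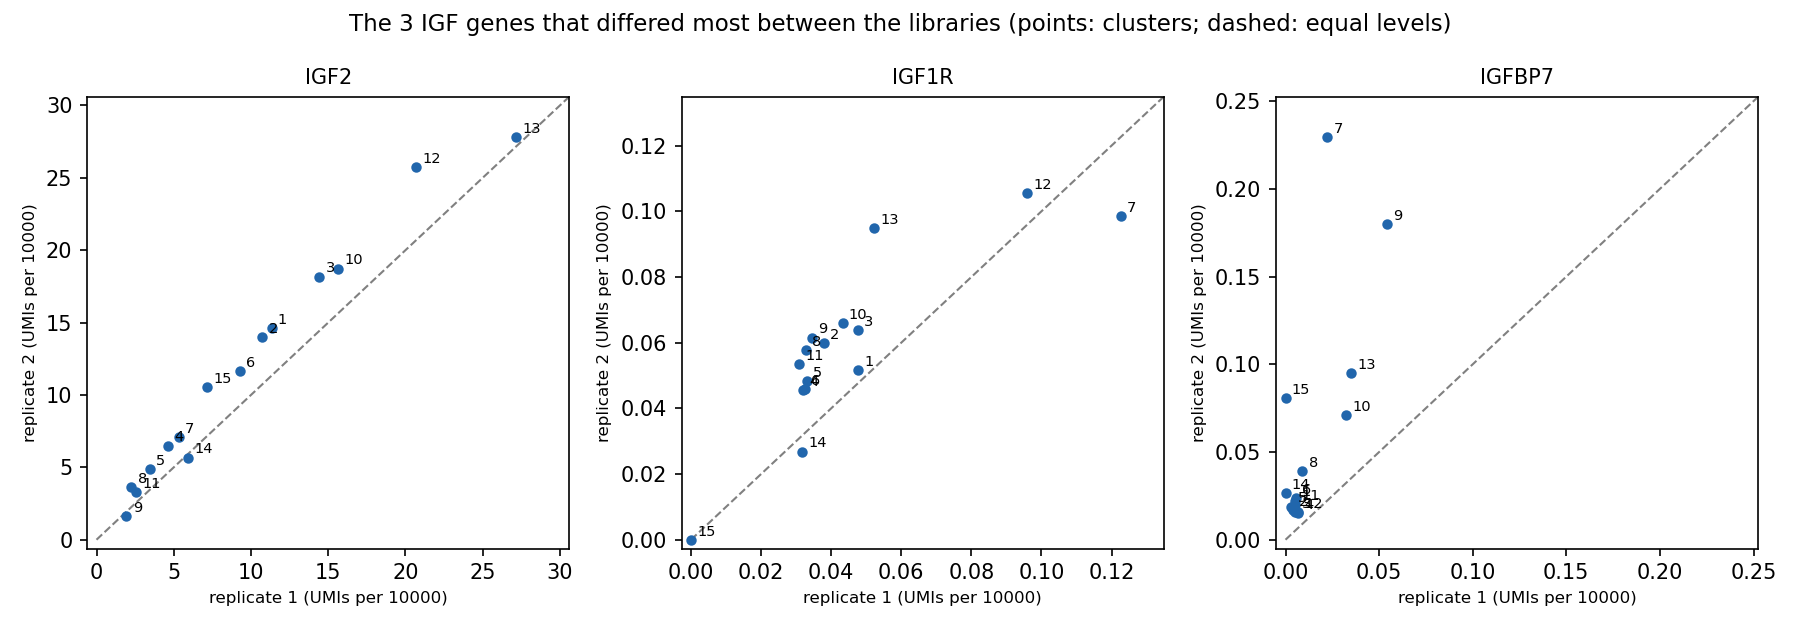
Levels of IGF2, IGF1R and IGFBP7 in replicate 1 (horizontal axes) and replicate 2 (vertical axes), in UMIs per 10000 UMIs, with 1 point for each cluster, marked by its number. The dashed line is equality. For IGFBP7 all 15 clusters lie above the line, and for IGF2 clusters 9 and 14 lie below it.

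Genes that act on IGF availability and genes of IGF receptor signalling were followed as 2 lists of 15 and 36 genes, of which 14 and 35 were in the feature list. HTRA1, a secreted protease that can cleave binding proteins, fell along the first path over clusters 8, 1, 3 and 12, from a mean level of 7.32 to 3.45, 1.97 and 1.38. The log2 fold changes of these steps were -1.05 ± 0.05, -0.77 ± 0.04 and -0.41 ± 0.05, all called by edgeR. On the second path it fell by 0.68 ± 0.04 from cluster 8 to 5 and by 0.92 ± 0.04 from cluster 4 to 2. ADAM12, a membrane protease with the same activity, fell by 0.72 ± 0.07 and 0.72 ± 0.08 over the first 2 steps of the first path, by 1.46 ± 0.13 from cluster 3 to 12, and by 0.51 ± 0.07 from cluster 4 to 2. ADAM9, another metalloprotease, fell by 0.26 ± 0.06 from cluster 8 to 1, by 0.48 ± 0.06 from cluster 1 to 3 and by 0.36 ± 0.07 from cluster 4 to 2.

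Of the availability list, 0 of 9 tested genes were higher and 3 lower in cluster 1 against 8 (median log2 -0.39, against -0.0019 over all genes), where 17.2% of all genes were higher and 16.9% lower. For cluster 3 against 1 these counts were 0 and 5 of 9 (median -0.48), against 21.1% and 19.1% of all genes. For cluster 12 against 3 they were 1 and 2 of 7 (median -0.39), against 18.2% and 15.6%, and for cluster 2 against 4 they were 0 and 6 of 8 (median -0.59), against 14.5% and 15.7%. Cluster 5 against 8 had 0 higher and 1 lower of 8, against 16.3% and 12.2%, and cluster 4 against 5 had none called of 8, against 9.16% and 7.28%. In cluster 9 against the myogenic clusters 5 of 10 were higher and 3 lower, against 28.9% and 27.6%. STC1, an inhibitor of the IGFBP protease PAPPA, was higher there by 2.72 ± 0.20 and IGF2BP3, which binds IGF2 mRNA, by 0.48 ± 0.05, while ADAM12 fell by 1.29 ± 0.07. Cluster 9 against cluster 7 had 0 higher and 5 lower of 8, against 29.9% and 26.6% of all genes, with ADAM12 at -1.16 ± 0.14, ADAM9 at -0.94 ± 0.16 and IGF2BP3 at -0.75 ± 0.14. With the library block the counts of this list were 0 higher and 5 lower in cluster 1 against 8, 1 and 4 in cluster 12 against 3, and 1 and 3 in cluster 5 against 8.

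The signalling list was mixed along both paths. In cluster 1 against 8, 3 of 28 tested genes were higher and 6 lower, against 17.2% and 16.9% of all genes, with GRB10, an adaptor that restrains the receptor, at 0.71 ± 0.05 and the PI3K regulatory subunit PIK3R1 at -0.43 ± 0.13. For cluster 3 against 1, 4 of 31 were higher and 5 lower, against 21.1% and 19.1%, among them PIK3R2 at -0.61 ± 0.07 and the kinase MAPK3 at -0.43 ± 0.05. For cluster 12 against 3, 6 of 30 were higher and 3 lower, against 18.2% and 15.6%, with FOXO1, a transcription factor held out of the nucleus by AKT, at 0.88 ± 0.09, the kinase RPS6KB1 at 0.67 ± 0.06 and the adaptor SHC1 at -0.56 ± 0.10. In these 3 steps the medians of the list were -0.14, 0.13 and 0.07, against -0.0019, 0.0035 and -0.02 over all genes.

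On the second path the list had 1 higher and 5 lower of 29 in cluster 5 against 8 (all genes 16.3% and 12.2%), 1 and 2 of 28 in cluster 4 against 5 (9.16% and 7.28%), and 3 and 4 of 30 in cluster 2 against 4 (14.5% and 15.7%). In cluster 5 against 8, SHC1 was at -0.27 ± 0.06. In cluster 4 against 5, RPS6KB1 was at 0.29 ± 0.06 and GRB10 at -0.28 ± 0.06. In cluster 2 against 4, the translation repressor EIF4EBP1 was at -0.44 ± 0.06, PIK3R2 at -0.42 ± 0.07 and FOXO1 at 0.36 ± 0.07. In cluster 9 against the myogenic clusters, 7 of 32 were higher and 9 lower, against 28.9% and 27.6%, with GRB10 at -1.12 ± 0.04, PIK3R2 at -0.89 ± 0.07 and PIK3R1 at 0.86 ± 0.08. Cluster 9 against cluster 7 had 9 higher and 8 lower of 28, against 29.9% and 26.6%, with EIF4EBP1 at 1.87 ± 0.11, MAPK3 at 1.66 ± 0.14 and HRAS at 1.58 ± 0.12, values that carry the TMM shift of this comparison. With the library block the signalling list had 5 higher and 10 lower in cluster 1 against 8, and 10 and 6 in cluster 3 against 1. It had 9 and 4 in cluster 12 against 3, 4 and 8 in cluster 5 against 8, and 6 and 3 in cluster 4 against 5. In cluster 2 against 4 it had 3 and 6, and in cluster 9 against the myogenic clusters 9 and 12.

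The pattern of each gene over the 15 clusters was set beside that of the 9067 genes with at least 1000 UMIs, as Pearson's r of log2 of the level plus 0.01. These correlations are descriptions over 15 points that share libraries and differ in depth. The genes most like IGF2 were NNAT (r = 0.976), ENSBTAG00000052600 (0.970), which has no name in the files, and SMARCD3 (0.958). IGFBP2 was most like SYT4 (0.975), AARS (0.958) and PCK2 (0.95), and IGFBP4 most like LOXL1 (0.971), ITGB3 (0.969) and PRELP (0.958). For IGFBP5 the closest were SEPT6 (0.946), CDCP1 (0.929) and TSPAN5 (0.918), and for IGFBP6 DHRS7 (0.942), EMP3 (0.932) and KDELR2 (0.931).

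IGF2R was closest to NCOR1 (0.976), PTPRF (0.971) and MTMR3 (0.963), and IGF1R to TMUB2 (0.984), TFCP2 (0.965) and PELI1 (0.962). Over the 11 deeper clusters, leaving out 7, 13, 14 and 15, the values for IGF2R dropped to between 0.872 and 0.882. Those for IGF1R, which had no UMI in cluster 15, dropped to between 0.888 and 0.936. IGFBP3 had no gene as close, with ARHGAP29 at 0.822, PTPN12 at 0.80 and EFNA5 at 0.796. Among the IGF genes themselves, IGF2 ran opposite to IGFBP6 (r = -0.86) and IGFBP5 (-0.74). IGFBP5 ran together with IGFBP4 (0.789, and 0.840 over the deeper clusters) and with IGFBP6 (0.752 and 0.939). IGFBP4 and IGFBP6 had an r of 0.748 (0.852 over the deeper clusters), and IGF1R and IGF2R one of 0.736 (0.821). The r of IGFBP3 with another of the 10 genes was at most 0.299 in size over the 15 clusters, with IGFBP7, and over the 11 deeper clusters it was -0.462 with IGF1R, -0.372 with IGF2R and 0.0081 with IGFBP7. IGFBP2 and IGFBP5, which are neighbours in RefSeq for ARS-UCD2.0, had an r of 0.638.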

How the data were processed

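With Cell Ranger 3.0.2 the authors mapped reads to ARS-UCD1.2, called cells, counted UMIs, and combined and clustered both libraries, with mapped reads thinned to an equal depth between them. Deposited counts are whole numbers of UMIs per gene and cell after that thinning, with no further normalization. The authors also deposited, per gene and cluster, the mean UMIs per cell (a signal that the authors scaled to equal totals), a log2 fold change and an adjusted p-value; the latter columns were not used.

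Divided by the value of 1 UMI in each cluster, the averages convert to whole UMI sums, which fixed the cluster of all 19096 cells. Barcode suffixes gave the library. Sums per library were tested in edgeR 4.0.16 (filterByExpr, TMM, quasi-likelihood, Benjamini-Hochberg over all genes, R 4.3.3). On simulated counts with 200 genes changed 3-fold, 99% were recovered for cluster 12 against 3 over 10742 genes, 89.5% for cluster 9 against 7 over 10904 genes and 95% for cluster 9 against all other cells over 13195 genes. Unchanged genes made up 4.35%, 3.76% and 5% of the calls. The changed genes lay above a minimum mean count and were raised and lowered in equal number. All genes shared a common dispersion, and the sums were drawn independently. Sparse genes, pairing by library and a shift in scaling were thus not simulated. Library numbers pair the sums, because both sums come from the same library. Deviations of same-numbered sums correlated at 0.167 to 0.669 over 15 clusters and 0.200 to 0.621 over 8 comparisons.

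Alternatives were DESeq2 1.42.0, no TMM, no filter, the library as a block, each cell reassigned to the likeliest cluster profile without the 10 genes, no doublets, no cells under 2000 UMIs, equal weight of other clusters and single libraries. Doublets were kept. Scrublet's automatic threshold called 1 cell, so the 8% of cells with the highest scores, 1397 in all, were left out instead, a choice made after seeing this. Every tested member is named in each comparison of clusters, and against all other cells each is given by its number of calls, with values for some. Also named are up to 3 called genes of each list, those of the largest fold change at a level of 0.1 or more, and the 3 genes most like each member with at least 1000 UMIs. Some genes that this rule names in the signalling list are not reported here, and the counts of that list include them. The members and lists were chosen with earlier results of these data known. No sequence is printed, as none was in the files used here.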

Additional observations from a re-analysis of the deposited data

How the results depend on the processing

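A total of 154 values of one gene in one comparison, 130 of them past the threshold, were recomputed under each alternative. Of values past the threshold, 2 changed sign under an alternative with a test: against all other cells, with the other clusters weighted equally, IGF2R went to -0.0555 in cluster 1 and -0.15 in cluster 3. None did so in a single library. In cluster 9 against 7, IGFBP5 was -0.34, IGFBP6 -0.0279 and IGFBP7 -0.28 without TMM, and IGFBP5 was -0.15 and IGFBP7 -0.78 without cells under 2000 UMIs. IGFBP7 also changed sign, never past the threshold, in cluster 12 against 3 (-0.0573 with reassigned cells), in cluster 4 against 5 (0.0113 without TMM, 0.0048 without the filter, 0.0775 with reassigned cells, 0.086 without doublets) and in cluster 2 against 4 (0.0086 without doublets). The number of IGF genes called in cluster 4 against 5 was 3, and became 6 with the replicate block and 5 with reassigned cells. In cluster 9 against 7 it was 5 and became 3 without cells under 2000 UMIs, where fewer cells were used. The other counts stayed within 1.5 times. The block changed no call of an IGF gene beyond those given above in the 8 comparisons of clusters, and called 100 in place of 82 of 135 values against all other cells. The cluster with the highest level was the same for 8 of 9 genes with reassigned cells, where IGFBP6 moved to cluster 14, and for 6 to 7 in a single library. The share of cells with IGF2 rests on depth: in cluster 12 it was 51.0% at 500 UMIs, 66.0% at 1000 and 91.9% without thinning, and in cluster 9 it was 5.0%, 9.26% and 59.5%. Cluster 15 had no value without cells under 2000 UMIs.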

Other observations

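IGFBP1, the neighbour of IGFBP3 in RefSeq for ARS-UCD2.0, had 49 UMIs in all cells, and the insulin gene INS had 3.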
